A study of Mus musculus with 6 samples.

Results

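The transcripts described here encode the enzymes that break down and build glycogen: the phosphorylase kinase subunits Phkg1, Phkg2, Phka1, Phka2 and Phkb, the glycogen phosphorylases Pygm, Pygb and Pygl, the glycogen synthase Gys1 and the branching enzyme Gbe1. These 10 genes, of 19938 genes with an array row of their own, were listed by function, and the list was chosen by the log2 difference of Phkg1 between transgenic and wild-type hearts, which was known when it was drawn up. Every one of the 10 genes had exactly 1 row carrying its symbol alone, so no choice between rows had to be made. Their differences between the genotypes are therefore given as a description of these hearts, without a test of their own.

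RNA was measured on 6 Affymetrix Mouse Gene 1.0 ST arrays, 1 heart each. The first group held 3 male A2a-R transgenic mice, in which Adenosine Receptor 2A was over-expressed in a cardiac-specific and inducible manner, and the second held 3 wild-type littermates. All 6 were FVB mice that underwent transverse aortic constriction, which loads the left ventricle with pressure, at 8 weeks of age, and the hearts were taken after 14 weeks. The promoter, the inducer and whether wild-type mice received it are not stated, unoperated hearts were not analysed here, and neither was the receptor transcript itself.

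Glycogen phosphorylase splits glucose units off glycogen as glucose 1-phosphate. It is switched on when phosphorylase kinase phosphorylates it, and phosphorylase kinase is in turn activated by protein kinase A, the kinase downstream of cyclic AMP, and by calcium bound to its built-in calmodulin subunit. The adenosine A2a receptor couples to the G protein that raises cyclic AMP, and the glycogen of cardiac muscle is a fuel store that this cascade mobilises under adrenergic drive. Several of the enzymes come in forms named for a tissue. Phkg1, Phka1 and Pygm are the muscle forms, Phkg2, Phka2 and Pygl the liver forms, and Pygb the brain form.

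Values are log2 RMA values, so a difference of 1 is a doubling; RMA corrects background, equalises the arrays' distributions and combines the probes of a row. The array means lay between 7.03 and 7.06. The upper quartile was 8.39 in each transgenic array and 8.42 to 8.44 in the wild-type arrays. The lower quartile was 5.53 to 5.57 in transgenic and 5.48 to 5.52 in wild-type arrays. The SD was 2.05 to 2.07 in transgenic and 2.08 to 2.10 in wild-type arrays, so the deposited distributions were not fully equal. Cardiomyocyte markers were bright in all hearts, with a mean over 10 genes of 13.43 to 13.44 in transgenic and 13.53 to 13.56 in wild-type hearts. That mean includes Nppa, the atrial natriuretic peptide gene, which fell (log2 difference -1.18 ± 0.21 SE, limma adjusted p = 0.0456). The median log2 difference of the 10 was -0.01, with 3 higher and 7 lower means. The other 9 did not pass. They ran from Myl3 at -0.13 ± 0.06 to Ryr2, the calcium release channel, at 0.25 ± 0.07 (limma adjusted p = 0.370 and 0.149). In a heart homogenate, a change in the number of cells of a type and a change in RNA per cell cannot be told apart.

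The promoter sequences of Phkg1 and Phka1, the genes with the largest differences of the 10, are shown first. Each runs from 250 bases before to 50 after the start site, 5′ to 3′ in the direction of the gene, and is RefSeq's for GRCm38.p6: chr5:129879039-129879338, minus strand, for Phkg1 and chrX:102644197-102644496, minus strand, for Phka1. Capitals mark E-boxes, CANNTG, the motif bound by basic helix-loop-helix factors such as the myogenic ones; it reads the same on both strands.
Phkg1: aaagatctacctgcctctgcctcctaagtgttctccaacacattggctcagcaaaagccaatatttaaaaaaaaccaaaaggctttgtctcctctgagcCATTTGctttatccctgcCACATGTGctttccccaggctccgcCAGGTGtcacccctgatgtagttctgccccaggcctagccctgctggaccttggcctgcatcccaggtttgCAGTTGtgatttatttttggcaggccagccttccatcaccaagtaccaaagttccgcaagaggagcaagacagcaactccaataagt
Phka1: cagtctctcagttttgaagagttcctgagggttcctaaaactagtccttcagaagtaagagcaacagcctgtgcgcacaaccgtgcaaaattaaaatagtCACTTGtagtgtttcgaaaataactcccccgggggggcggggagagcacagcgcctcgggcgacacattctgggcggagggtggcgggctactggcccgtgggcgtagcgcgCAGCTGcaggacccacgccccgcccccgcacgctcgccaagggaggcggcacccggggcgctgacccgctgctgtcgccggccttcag

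The Phkg1 window held 5 E-boxes, whose first bases lay at -151, -133, -131, -108 and -37 from the start site, the second and the third overlapping in CACATGTG. At least 5 were found in 2.10% of 32851 promoter windows of the same length in the RefSeq table, which cover 27025 genes. The Phka1 window held 2, at -150 and -38, and at least 2 were found in 39.6% of windows. An E-box was in 7 of the 10 windows and in 72.3% of all windows. Pygm held 3, Gys1 and Gbe1 2 each, Phkg2 and Phkb 1 each, and Phka2, Pygb and Pygl 0. The windows of Phkg1 and Phka1 also differed in CpG dinucleotides, with 2 and 25, against a median of 7 over all windows. Among the 10 genes, Phkg1 and Pygm, with 4, lay below that median, and the other windows held 11 (Phkg2) to 38 (Phkb). The cyclic AMP response element TGACGTCA, searched on both strands, was in 0 of the 10 windows and in 1.79% of all windows. Its shorter core TGACG was in 3 of the 10 (Phkb, Pygb and Pygl) and in 20.8% of all windows. The MEF2 motif was in 0 of the 10 and in 3.19% of all windows, and the TATA box TATAAA in 0 and in 13.6%. The CCAAT box was in 3 of the 10 and in 37.4% of all windows, and the GC box GGGCGG in 7 and in 35.7%. These counts describe the letters of a 300-base window and say nothing of binding.

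Phkg1, the catalytic subunit of muscle phosphorylase kinase, was much higher in the transgenic hearts. Its log2 values were 8.09, 8.49 and 8.19 in transgenic hearts 1 to 3, against 6.57, 6.99 and 7.06 in wild-type hearts 1 to 3. The lowest transgenic heart stood above the highest wild-type heart by more than the range within either group, 0.40 in transgenic and 0.49 in wild-type hearts. The mean log2 difference was 1.38 ± 0.15 (SE, 95% interval 1.05 to 1.72, n = 3 each), a 2.61-fold higher level. Only 11 of the 21789 rows with exactly 1 gene symbol differed by more in absolute size.

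Phkg2, the catalytic subunit that dominates in liver and testis, did not share this difference. It had log2 values of 8.54, 8.46 and 8.55 in transgenic hearts and 8.62, 8.65 and 8.59 in wild-type hearts. The transgenic values lay just below the wild-type ones without overlap, by a mean log2 difference of -0.10 ± 0.06 (SE, 95% interval -0.23 to 0.03). The log2 difference between the genotypes was 1.49 larger for Phkg1 than for Phkg2. The values of Phkg1 minus Phkg2, taken within each heart, did not overlap between the groups. The SD of the within-heart values was 0.26 in transgenic and 0.27 in wild-type hearts (n = 3 each). The list was chosen by the difference of Phkg1, so this contrast is a description and no test.

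Phka1, the muscle form of the large regulatory alpha subunit, which carries sites for protein kinase A and restrains the catalytic subunit, was also higher. Its log2 values were 10.02, 10.21 and 9.98 in transgenic hearts and 9.27, 9.24 and 9.55 in wild-type hearts. The groups were separated by 0.43 between the lowest transgenic and the highest wild-type heart. The mean log2 difference was 0.72 ± 0.10 (SE, 95% interval 0.49 to 0.95), a 1.64-fold higher level, and 99 rows differed by more in absolute size. Wild-type heart 3 was the highest of its group in both Phkg1 and Phka1, and transgenic heart 2 the highest of its own.

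Phka2, the liver form of the alpha subunit, differed in the same direction by less. It was measured at 9.15, 9.16 and 9.17 in transgenic hearts, against 8.96, 9.01 and 8.93 in wild-type hearts. The groups did not overlap, and the mean log2 difference was 0.19 ± 0.05 (SE, 95% interval 0.07 to 0.32), a 1.14-fold higher level. The genotype difference was 0.52 larger for Phka1 than for Phka2 on the log2 scale. Taken within each heart, Phka1 minus Phka2 did not overlap between the groups.

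Phkb, the beta subunit common to the muscle and liver kinases, showed no separation. Its log2 values of 9.67, 9.79 and 9.82 in transgenic hearts ran through those of 9.77, 9.82 and 9.88 in wild-type hearts. The mean log2 difference was -0.06 ± 0.06 (SE, 95% interval -0.21 to 0.09). The level, transgenic over wild type, was thus 0.96-fold for Phkb, beside 2.61-fold for Phkg1 and 1.64-fold for Phka1, the muscle forms.

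The delta subunit of the kinase is calmodulin, encoded by separate genes that also serve many other calcium-dependent proteins. Calm2 had log2 values of 9.36, 9.59 and 9.49 in transgenic and 9.26, 9.18 and 9.39 in wild-type hearts, which overlapped. Its difference was 0.20 ± 0.08 (SE, limma adjusted p = 0.302), and a second row of the same gene gave 0.27 ± 0.09 (limma adjusted p = 0.232). Calm3 had 10.47, 10.56 and 10.33 in transgenic hearts and 10.27, 10.28 and 10.31 in wild-type hearts, with a difference of 0.17 ± 0.07 (limma adjusted p = 0.324). Neither of these passed the threshold.

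**Figure D1:**
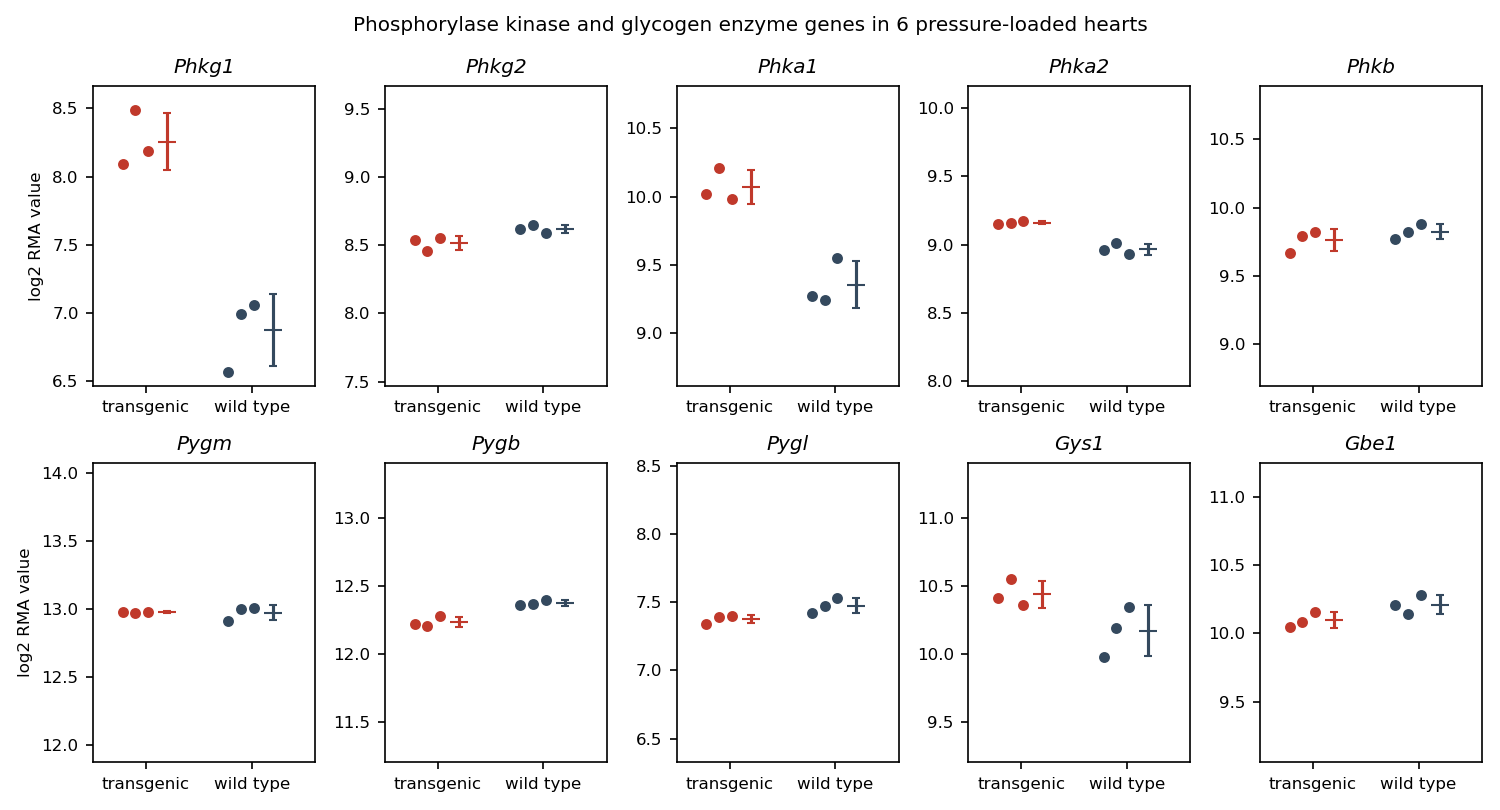
Log2 RMA value (vertical axis, the same span in each panel, not starting at 0) of the 10 genes in 3 transgenic and 3 wild-type hearts after transverse aortic constriction; points are hearts, and the bar beside them is mean ± SD. Phkg1 and Phka1 stand clear of the wild-type hearts, while Pygm lies between 12.91 and 13.01 in all 6.

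Pygm, the muscle glycogen phosphorylase that is the substrate of the kinase and is deficient in McArdle disease, was level across the hearts. Its log2 values were 12.98, 12.97 and 12.98 in transgenic hearts, against 12.91, 13.00 and 13.01 in wild-type hearts. The transgenic values fell inside the wild-type range, and the log2 difference was 0.003 ± 0.06 (SE), with a 95% interval of -0.13 to 0.13.

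Pygb, the phosphorylase form of brain that the heart also makes, was slightly lower. The 6 hearts had log2 values of 12.22, 12.21 and 12.28 in transgenic hearts and 12.36, 12.37 and 12.40 in wild-type hearts. The groups did not overlap, with a log2 difference of -0.14 ± 0.05 (SE, 95% interval -0.26 to -0.02). The genotype difference was 0.14 larger for Pygm than for Pygb and 0.10 larger for Pygm than for Pygl on the log2 scale. Taken within each heart, Pygm minus Pygb and Pygm minus Pygl did not overlap between the groups.

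Pygl, the liver phosphorylase, which leukocytes also express, had log2 values of 7.34, 7.39 and 7.40 in transgenic hearts and 7.42, 7.47 and 7.53 in wild-type hearts. The groups were adjacent without overlapping, and the log2 difference was -0.10 ± 0.06 (SE, 95% interval -0.23 to 0.04). Markers of macrophages and monocytes were read beside Pygl. Of 15 such markers 14 had a higher mean in transgenic hearts, Lgals3 (0.61 ± 0.06 SE, limma adjusted p = 0.00423) and Lyz1 (0.53 ± 0.08, limma adjusted p = 0.0271) rose, and 13 did not pass. The groups did not overlap in 11 of the 15 that were higher and 0 that were lower, beside 7.79% and 12.4% of all genes. An unadjusted limma p below 0.05 was found for 10 of the 15, beside 14.6% of all genes. The mean log2 value of the 15 markers was 8.35 to 8.44 in transgenic and 7.99 to 8.12 in wild-type hearts. Cd68, the marker with the largest difference, was at 0.62 ± 0.12 (limma adjusted p = 0.0622). None of 10 neutrophil markers passed in limma, and 0 had an unadjusted p below 0.05; their mean was 5.35 to 5.44 in transgenic and 5.31 to 5.57 in wild-type hearts, and the largest differences were those of Ngp at -0.22 ± 0.26 and S100a8 at 0.18 ± 0.12 (SE). The part of these cells in the values of Pygl and the other enzymes was not tested.

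Gys1, the muscle and heart glycogen synthase, which adds glucose units to the chain and is inhibited by phosphorylation, had log2 values of 10.41, 10.55 and 10.36 in transgenic hearts and 9.98, 10.19 and 10.35 in wild-type hearts. The groups were separated by only 0.01, and wild-type heart 3 stood with the transgenic hearts. The log2 difference was 0.27 ± 0.10 (SE, 95% interval 0.04 to 0.50), a 1.20-fold higher level. As with Phkg1, transgenic heart 2 was the highest and wild-type heart 1 the lowest of the 6.

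Gbe1, the branching enzyme whose loss causes Andersen disease, had 10.05, 10.08 and 10.16 in transgenic hearts, against 10.21, 10.14 and 10.28 in wild-type hearts, on the log2 scale. The groups overlapped, and the log2 difference was -0.11 ± 0.06 (SE, 95% interval -0.26 to 0.03). The genotype difference was 0.38 larger for Gys1 than for Gbe1. Taken within each heart, Gys1 minus Gbe1 did not overlap between the groups (SD 0.14 in transgenic and 0.17 in wild-type hearts).

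Counted together, 5 of the 10 genes had a higher and 5 a lower mean in transgenic hearts, with a median log2 difference of -0.03 beside -0.01 over all 19938 genes. In the limma fit over all rows, 2 of the 10 were called higher at an adjusted p below 0.05, Phkg1 and Phka1, and 0 lower; of all genes 0.993% were called, 0.547% higher and 0.446% lower. The groups did not overlap in 7 of the 10, with 4 higher and 3 lower, beside 20.2% of all genes, 7.79% higher and 12.4% lower. Since the list was drawn up with this contrast known, nothing is read from these shares. The Phka1 call was lost without transgenic replicate 2 (log2 difference 0.65) and without wild-type replicate 1 (0.68) or 2 (0.66). Phkg1 was called in every such fit, with log2 differences of 1.23 to 1.48.

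**Figure D2:**
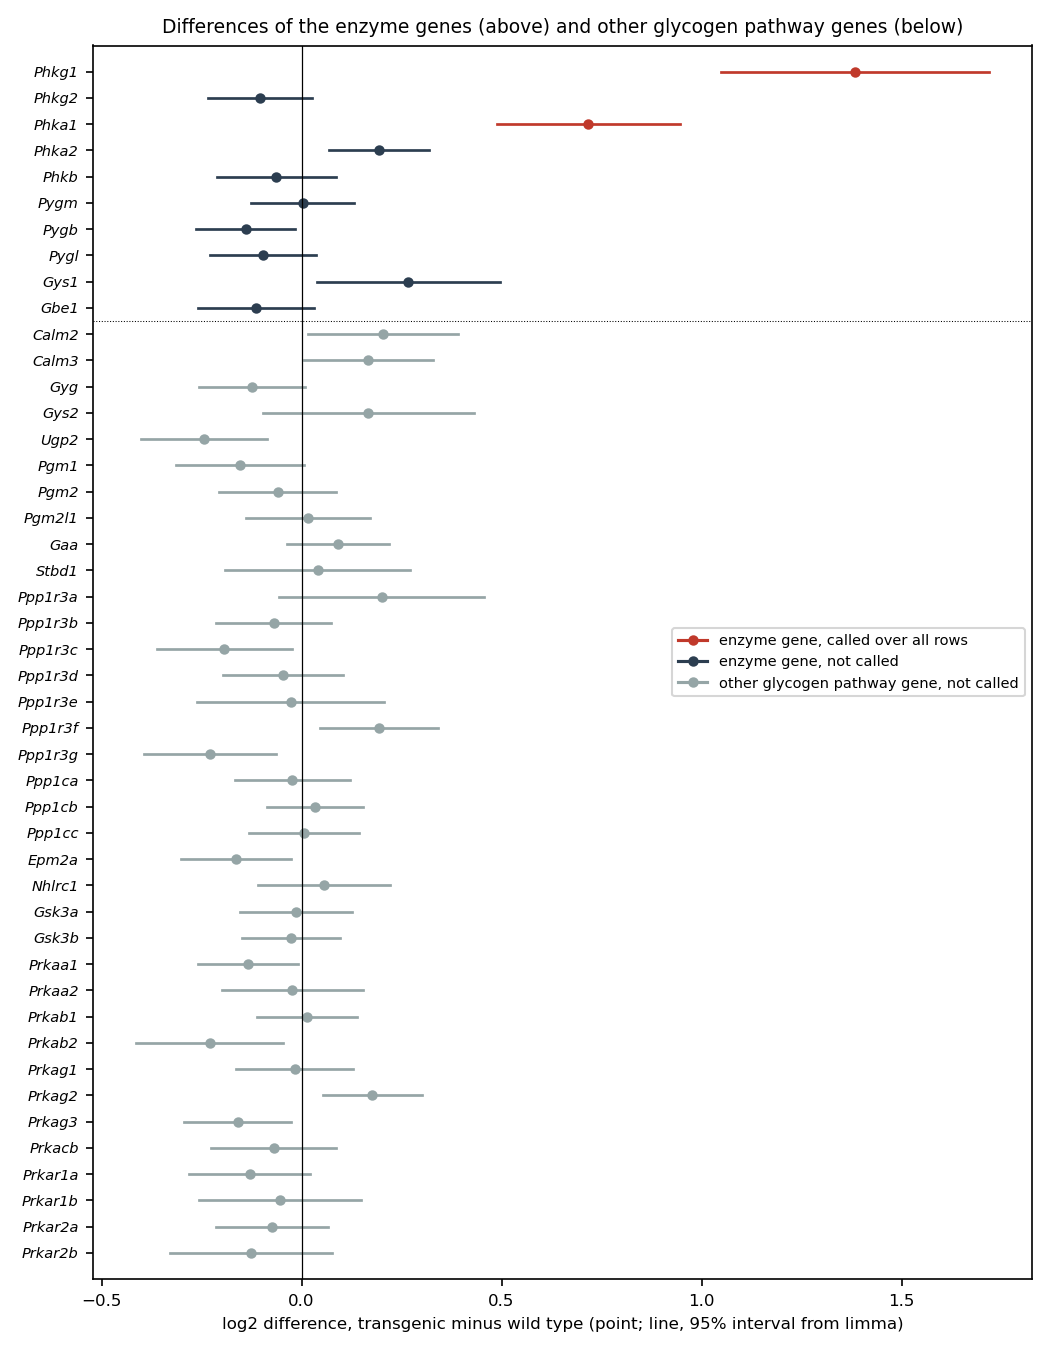
Log2 difference, transgenic minus wild type, with its 95% interval from limma, for the 10 enzyme genes above the dotted line and 36 other genes of glycogen metabolism and its control below it. Phkg1 at 1.38 and Phka1 at 0.72 are the called genes, and every gene below the line lies between -0.24 and 0.20.

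The differences in the rest of the glycogen pathway were small, between -0.24 and 0.20 on the log2 scale. Of 39 further genes listed by function, 36 had a row of their own. In limma 0 of the 36 passed over all rows, beside 0.993% of all genes. An unadjusted limma p below 0.05 was found for 11 of the 36, a larger share than the 14.6% of all genes. The groups did not overlap in 5 of the 36 that were higher and 10 that were lower, beside 7.79% and 12.4% of all genes. Of the 36, 13 had a higher and 23 a lower mean in transgenic hearts, with a median log2 difference of -0.03. Over all 19938 genes 10668 had a lower mean, and the median was -0.01. The lists were chosen with earlier results of these data known, so nothing is read from these shares.

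Among the 6 other genes of glycogen synthesis and priming, Ugp2, which makes the UDP-glucose that glycogen synthase uses, had the largest difference. Its log2 values were 10.87, 10.89 and 11.02 in transgenic hearts, against 11.09, 11.24 and 11.18 in wild-type hearts. The groups did not overlap, and the difference was -0.24 ± 0.07 (SE, limma adjusted p = 0.162).

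Of 10 catalytic and glycogen-targeting subunits of protein phosphatase 1, the enzyme that reverses the phosphorylation of phosphorylase and synthase, 4 had a higher and 6 a lower mean. The targeting subunits Ppp1r3g and Ppp1r3c were at -0.23 ± 0.07 and -0.19 ± 0.07 (SE, limma adjusted p = 0.202 and 0.279), and Ppp1r3f was at 0.19 ± 0.06 (limma adjusted p = 0.224). Epm2a, which encodes the glycogen phosphatase laforin, was at -0.16 ± 0.06 (limma adjusted p = 0.266).

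AMP-activated protein kinase, an energy sensor that binds glycogen through its beta subunit, was represented by 7 subunit genes. Prkag2, whose mutations cause glycogen storage in the human heart, had log2 values of 8.65, 8.63 and 8.69 in transgenic and 8.47, 8.46 and 8.51 in wild-type hearts, a difference of 0.18 ± 0.05 (SE, limma adjusted p = 0.194). Prkab2 was at -0.23 ± 0.08 and Prkag3 at -0.16 ± 0.06 (limma adjusted p = 0.245 and 0.261). For the 5 measured subunits of protein kinase A, the means were all lower in transgenic hearts, by -0.13 to -0.05, and 0 passed in limma or had an unadjusted p below 0.05.

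Because Phkg1 and Phka1 are the skeletal muscle forms, markers of fast skeletal muscle were read beside them. Of 12 such markers, Myh1, Myh4 and Actn3 among them, 0 passed in limma and 2 had an unadjusted p below 0.05, Myh1 at 0.19 ± 0.06 and Mybpc2 at -0.18 ± 0.07 (SE, limma adjusted p = 0.203 and 0.303). Their mean log2 value was 6.40 to 6.54 in transgenic and 6.41 to 6.51 in wild-type hearts, so the ranges of the groups overlapped. The part of skeletal muscle tissue in the values of Phkg1 and Phka1 was not tested. The 7 measured liver markers also overlapped, at 5.99 to 6.11 in transgenic and 5.99 to 6.12 in wild-type hearts, and 0 passed in limma, with 1 at an unadjusted p below 0.05, Apoa1 at 0.13 ± 0.06; Cyp2e1 was at -0.10 ± 0.14 (SE).

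The genes whose values followed Phkg1 most closely were found by centring each gene on its mean over the 6 arrays and taking the root mean square difference from Phkg1. Tmprss13, a membrane serine protease, was the closest at 0.08 log2 units. Its log2 values were 7.67, 8.03 and 7.61 in transgenic hearts and 6.25, 6.58 and 6.60 in wild-type hearts. Next came Lrrc52 at 0.11, Rtl3 at 0.13, and Pla2g5, a secreted phospholipase A2, and Cfap61, both at 0.14. All 5 were higher in the transgenic hearts by 1.20 to 1.51 on the log2 scale, which the measure of likeness itself requires, and none is a gene of glycogen metabolism listed here.

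**Figure D3:**
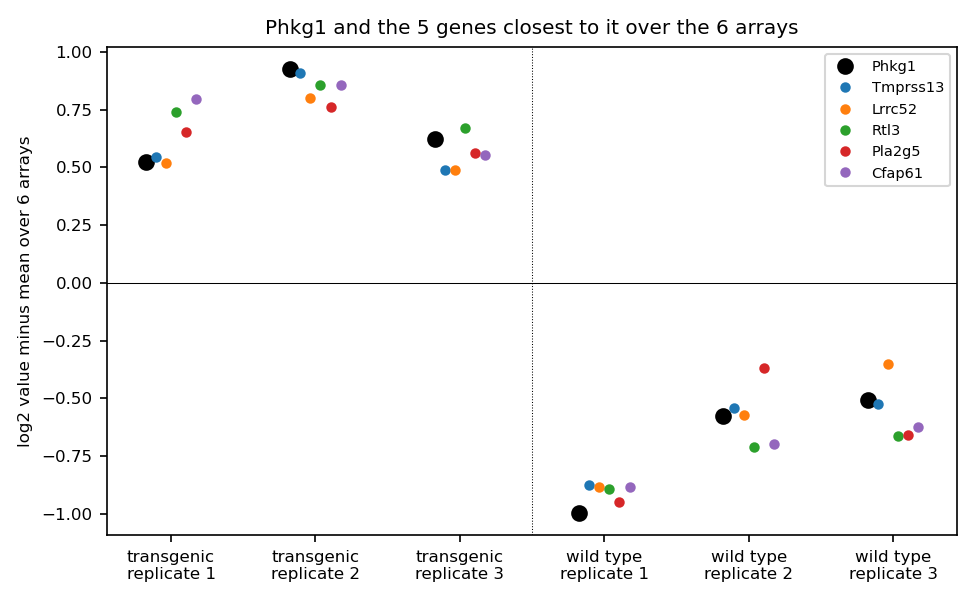
Log2 value minus the gene's mean over the 6 arrays (vertical axis) in each heart for Phkg1 (large black points) and the 5 genes closest to it, set side by side. Transgenic heart 2 and wild-type heart 1 hold the extremes of Phkg1, at 0.925 and -0.995.

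**Figure D4:**
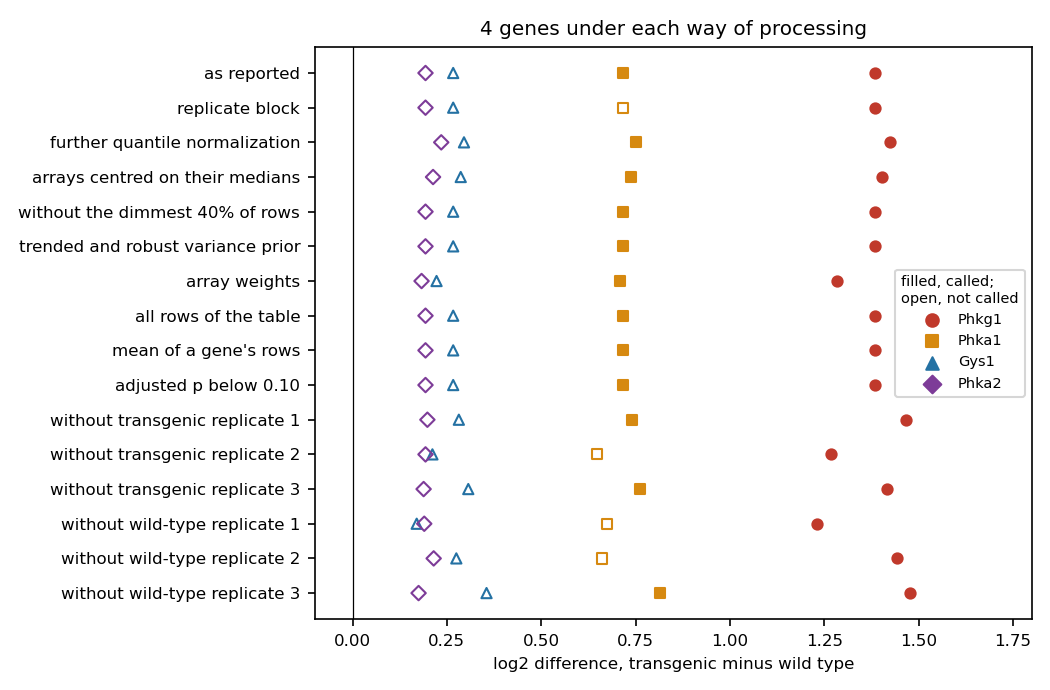
Log2 difference, transgenic minus wild type (horizontal axis), of Phkg1, Phka1, Gys1 and Phka2 as reported and under 15 other ways of processing; filled points were called over all rows and open points were not. Phkg1 is filled throughout at 1.23 to 1.48, and Phka1, at 0.65 to 0.82, is open in 4 of the 15.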

How the data were processed

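The authors' deposited log2 values were used as they stand; per the submitters' processing notes they come from RMA and Partek, with versions, settings and genome build not given in the sources used here. Of 28853 rows, 21789 carried exactly 1 gene symbol in the platform annotation, and these were tested, transgenic minus wild type, with limma 3.58.1 in R 4.3.3 (lmFit and eBayes, no covariate, two-sided), with Benjamini-Hochberg adjustment over all of them at a threshold of 0.05. A gene with several rows is given by the row of highest mean over the 6 arrays. The code was tested on simulated data. Precision is limited by the number of arrays, and over the tested rows the SE of a log2 difference had a median of 0.07. Hearts are numbered by their titles, 1 to 3 in each group; the descriptions number the wild-type hearts 3 to 5. No pair of arrays was identical over all rows.

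The genes and lists were chosen with earlier results of these data known. Named were the 10 enzymes, the pathway genes that passed and the 8 with the smallest p of the rest, the calmodulin genes, the 5 genes nearest to Phkg1, and of each marker list those that passed and the largest differences. Alternatives were the replicate number as a block, normalization, centring, filters, variance prior, weights, rows, threshold and leaving out each array. Promoter windows were matched by Entrez identifier, 10 of 10.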

Additional observations from a re-analysis of the deposited data

How the results depend on the processing

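Phkg1 was called in all 15 alternatives and Phka1 in 11, and the differences of 9 of the 10 enzyme genes kept their sign in all 15. Pygm, near 0, ran from -0.03 to 0.02. Further quantile normalization moved Phkg2 from -0.103 to -0.057 and Phka2 from 0.193 to 0.235, by more than their spread within groups. The count of called enzyme genes, 2 as reported, was 1 with the replicate number as a block and 1 to 2 when any 1 array was left out. The count of other glycogen pathway genes was 0 as reported and 0 without any 1 array; it was 1 with a trended and robust variance prior, where Ugp2 fell (-0.24 ± 0.06 SE, limma adjusted p = 0.0488, against 0.162 as reported). Over all rows 209 were called, 113 higher and 96 lower; there were 97 with the replicate block, 493 without the dimmest 40% of rows (184 higher, 309 lower), 579 with the trended and robust prior (240 higher, 339 lower), 476 at an adjusted p below 0.10, and 84 to 147 without 1 array. The block used the numbers of the titles, which the descriptions do not share for the wild-type hearts. Equal numbers are not tied to a shared litter or day in the labels, and the deviations of equally numbered hearts from the group means correlated across rows at 0.16, -0.01 and -0.10, so the numbers were not read as pairs. The causes of these shifts were not tested. With 3 hearts a group, differences of the size seen in most of the 10 genes, under 0.20 on the log2 scale in 7 of them, did not reach the threshold.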
